A study of Mus musculus with 26 samples.

Results

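The genes described here are 10 aldehyde dehydrogenases, Aldh1a1, Aldh1a7, Aldh1a2, Aldh1a3, Aldh1b1, Aldh1l1, Aldh2, Aldh3a2, Aldh3b1 and Aldh8a1, out of 47643 genes in the deposited count table. They and the gene lists used below were chosen with earlier results of these data known. The 10 genes were taken by symbol, and all were matched through their Ensembl identifiers. RNA-seq of mouse liver gave 26 libraries in 10 groups, which form 5 pairs of a treated or mutant group and its own control, in a study that set out to profile drug metabolism genes in cholestatic livers.

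In the first pair, wild-type C57BL/6J mice of 8 weeks received TCPOBOP, an agonist of the xenobiotic receptor CAR, or the vehicle corn oil, with 2 whole livers in each group. The TCPOBOP libraries are titled as 36 hours after injection, but another label of the same samples reads 6 hours, so the time is uncertain. The second pair set Fxr-/- Shp-/- mice, which lack the bile acid receptor FXR and the repressor SHP, against wild type, with 3 whole livers each, both C57BL/6J and 12 weeks old. The third pair took 3 whole livers 48 hours after partial hepatectomy, the surgical removal of part of the liver, and 3 sham livers at 0 hours. All 6 came from C3H/HeN mice of 8 to 10 weeks with no genotype label. Mice of these 3 pairs fed freely. In the fourth pair, isolated hepatocytes came from wild-type C57BL/6J mice of 16 weeks on chow or a 60% high fat diet, 2 samples each, after a fast of 10 hours. In the fifth, C57BL/6J mice of 10 to 12 weeks, carrying floxed alleles of both Fxr and Shp in both groups, ate chow or a diet with cholic acid, a primary bile acid, and were fasted for 8 to 10 hours before 3 whole livers were taken from each group. No Cre driver is named for the floxed mice, and neither the amount of cholic acid nor the length of either diet is given in the labels.

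Aldehyde dehydrogenases oxidise aldehydes to carboxylic acids with NAD or NADP as the electron acceptor. In liver they clear acetaldehyde made from ethanol, aldehydes from membrane lipids and intermediates of vitamin and amino acid metabolism. Aldh1a1, Aldh1a2 and Aldh1a3 encode retinaldehyde dehydrogenases, which make retinoic acid from retinaldehyde, and Aldh1a7 is a close rodent paralog of Aldh1a1. Aldh2 and Aldh1b1 encode mitochondrial enzymes that act on acetaldehyde. Aldh1l1 encodes the cytosolic 10-formyltetrahydrofolate dehydrogenase of one-carbon metabolism. Aldh3a2 encodes the fatty aldehyde dehydrogenase of the endoplasmic reticulum, and Aldh3b1 a membrane-bound enzyme for medium- and long-chain aldehydes. The product of Aldh8a1 acts on an intermediate of the kynurenine pathway of tryptophan breakdown.

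Aldh1a1 (ENSMUSG00000053279.6, chr19:20492715-20643465 on the plus strand of GRCm38) and Aldh1a7 (ENSMUSG00000024747.3, chr19:20692953-20727562 on the minus strand) lie next to each other in opposite orientation. Their coding sequences, both 1503 bases long, are 91.9% identical over 1501 aligned bases in GENCODE transcripts, and the 6 other members with an aligned coding sequence (all but Aldh3a2 and Aldh3b1) reach at most 71.5% identity to Aldh1a1. The first 180 coding bases, 5′ to 3′, are shown because they carry the similarity that read counting has to resolve. Capitals mark the 10 positions at which the genes differ.
Aldh1a1 coding bases 1 to 180: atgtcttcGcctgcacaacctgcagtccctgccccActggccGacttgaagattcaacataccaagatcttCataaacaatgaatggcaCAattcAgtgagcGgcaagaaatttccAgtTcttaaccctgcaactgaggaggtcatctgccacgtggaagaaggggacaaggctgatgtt
Aldh1a7 coding bases 1 to 180: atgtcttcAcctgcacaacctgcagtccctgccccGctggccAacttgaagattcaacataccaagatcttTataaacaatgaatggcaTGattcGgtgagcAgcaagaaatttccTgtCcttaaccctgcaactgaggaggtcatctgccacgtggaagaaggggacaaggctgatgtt
Of the 2017 windows of 50 bases in the Aldh1a7 transcript, 151 (7.49%) also occur without mismatch in Aldh1a1, and 1 of 1967 windows of 100 bases does. No window of either length is shared between Aldh1a1 and any of the other 8 members. Counts of Aldh1a1 and Aldh1a7 are therefore uncertain to the extent that reads fell in the shared windows.

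The similarity extends upstream of the start sites. RefSeq promoters of GRCm38.p6 were matched for 8 of the 10 members (all but Aldh1a3 and Aldh2), and the downstream of the 2 Aldh1a1 promoters was 91.4% identical to that of Aldh1a7 over 175 aligned bases, gaps left out. The upstream Aldh1a1 promoter was 63.8% identical to it over 58 aligned bases. The 250 bases before each start of the similar promoters are shown 5′ to 3′ on the gene's own strand. Both genes were raised in the same 2 comparisons below, as were Aldh1b1 and Aldh3a2. A part of the promoter likeness in these changes was not tested. Capitals mark the letters of the CCAAT box where it occurs, and of the TATA box (TATAAA) where it occurs, on either strand, for matches wholly within the bases shown. A second CCAAT match of Aldh1a1 begins in the final letters shown, in lower case, and runs past the start.
Aldh1a1, chr19:20601718-20601967, plus strand: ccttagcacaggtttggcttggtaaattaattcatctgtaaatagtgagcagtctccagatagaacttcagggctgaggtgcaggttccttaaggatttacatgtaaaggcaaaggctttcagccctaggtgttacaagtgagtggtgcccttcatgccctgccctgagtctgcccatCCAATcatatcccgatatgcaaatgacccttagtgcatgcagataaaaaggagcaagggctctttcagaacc
Aldh1a7, chr19:20727557-20727806, minus strand: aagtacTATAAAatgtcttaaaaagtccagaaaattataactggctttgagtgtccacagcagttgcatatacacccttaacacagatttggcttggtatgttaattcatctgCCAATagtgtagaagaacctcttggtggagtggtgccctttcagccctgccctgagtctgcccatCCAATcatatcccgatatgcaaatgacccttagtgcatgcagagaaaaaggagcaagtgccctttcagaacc
A run of 65 bases, from -94 to -30 relative to each start, is the same in both and contains a CCAAT box. The CCAAT box occurs on either strand in 37.4% of all 32851 RefSeq promoter windows of 300 bases. The letters of the TATA box occur in 13.6% of them, and the match shown in Aldh1a7 begins at -244, far upstream of the start. The nuclear receptor motif AGGTCA, searched on both strands and present in 16.3% of windows, was not among the letters of the 2 promoters shown.

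The remaining members are spread over the genome. Aldh1a2 lies at chr9:71215789-71296243, Aldh1a3 at chr7:66390890-66427517, Aldh1b1 at chr4:45799022-45804604, Aldh1l1 at chr6:90486427-90600203, Aldh2 at chr5:121566027-121593824, Aldh3a2 at chr11:61223417-61267464, Aldh3b1 at chr19:3913491-3929808 and Aldh8a1 at chr10:21377291-21396585. Other annotated genes overlap 13.4% of the Aldh1l1 exon bases, including an antisense gene, and 2.54% of those of Aldh2.

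Libraries held 13949059 to 70367874 reads counted to genes, the deepest being the 4 hepatocyte libraries. Values below are CPM, counts relative to library size, scaled by TMM within a pair, and calls are at an adjusted p under 0.05 in edgeR's quasi-likelihood test over all genes tested. Nothing in the labels says that replicates came from separate mice, so the p-values measure only the spread between these samples. In bulk liver, fewer cells of a type and less RNA per cell cannot be told apart. Reads of Nr0b2, which encodes SHP, numbered 226 to 446 in wild-type libraries and 13 to 39 in the knockout, and those of Nr1h4, which encodes FXR, 1941 to 2846 and 1198 to 1421. Cyp2b10, the standard target of CAR, stood at 3462 and 3076 CPM with TCPOBOP, at 10.3 CPM in corn oil 2 and at 3783 CPM in the other vehicle library. The library labelled corn oil 1 thus goes against its label.

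Levels were compared between genes per kilobase of exon, with all annotated exons of a gene merged. This length is 4937 bases for Aldh1a1 and 5126 for Aldh2, and their longest protein-coding transcripts have 2358 and 3867 bases. The order between genes therefore depends on the length used. In wild-type liver, Aldh2 was highest at 411 ± 5.05 CPM per kilobase (SD, n = 3), followed by Aldh1a1 at 302 ± 43.5, Aldh1l1 at 183 ± 12.5 and Aldh8a1 at 82.5 ± 3.42. Aldh1a7 at 54.1 ± 2.89 and Aldh3a2 at 51.8 ± 9.13 overlapped, Aldh1b1 was at 13.4 ± 0.0907, and Aldh3b1 was at 1.10 ± 0.415. Aldh1a3 and Aldh1a2, with means of 0.0582 and 0.0247 CPM per kilobase, overlapped at the bottom. By merged exon length, the order of these wild-type levels puts the mitochondrial Aldh2 first and the retinaldehyde dehydrogenases Aldh1a2 and Aldh1a3 last. The order of Aldh2 and Aldh1a1 is not settled, because it depends on the length used.

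By the same merged length, other control groups kept Aldh2 first except corn oil, in which it overlapped with Aldh1a1. In sham C3H/HeN liver the order was Aldh2 (387 ± 4.74 CPM per kilobase), Aldh1l1 (317 ± 11.9), Aldh1a1 (261 ± 3.71), Aldh1a7 (103 ± 18.3), Aldh8a1 (66.9 ± 2.70), Aldh1b1 (57.5 ± 1.85) and Aldh3a2 (29.2 ± 3.89), with no overlap between neighbours (SD, n = 3). Merged exons of Aldh8a1 hold 4389 bases and its longest protein-coding transcript 2259, while Aldh1a7 has 2066 by either length. Their order, like that of Aldh1l1 and Aldh1a1, is given for the merged length only. Mean Aldh1b1 levels were 25.2 CPM per kilobase in corn oil, 13.4 in wild type, 57.5 in sham and 15.8 in chow hepatocytes, and the 3 floxed chow livers ranged from 18.1 to 23.5. Pairs were scaled separately and differ in strain, age, feeding and cell preparation, so these factors cannot be told apart in levels set across pairs. Aldh1a2 and Aldh1a3 were near the limit of detection throughout, with 0 to 35 and 0 to 24 reads per library. Both failed the filter on low counts in the knockout, high fat and cholic acid pairs, as did Aldh1a3 in the hepatectomy pair, and they were not tested there.

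**Figure D1:**
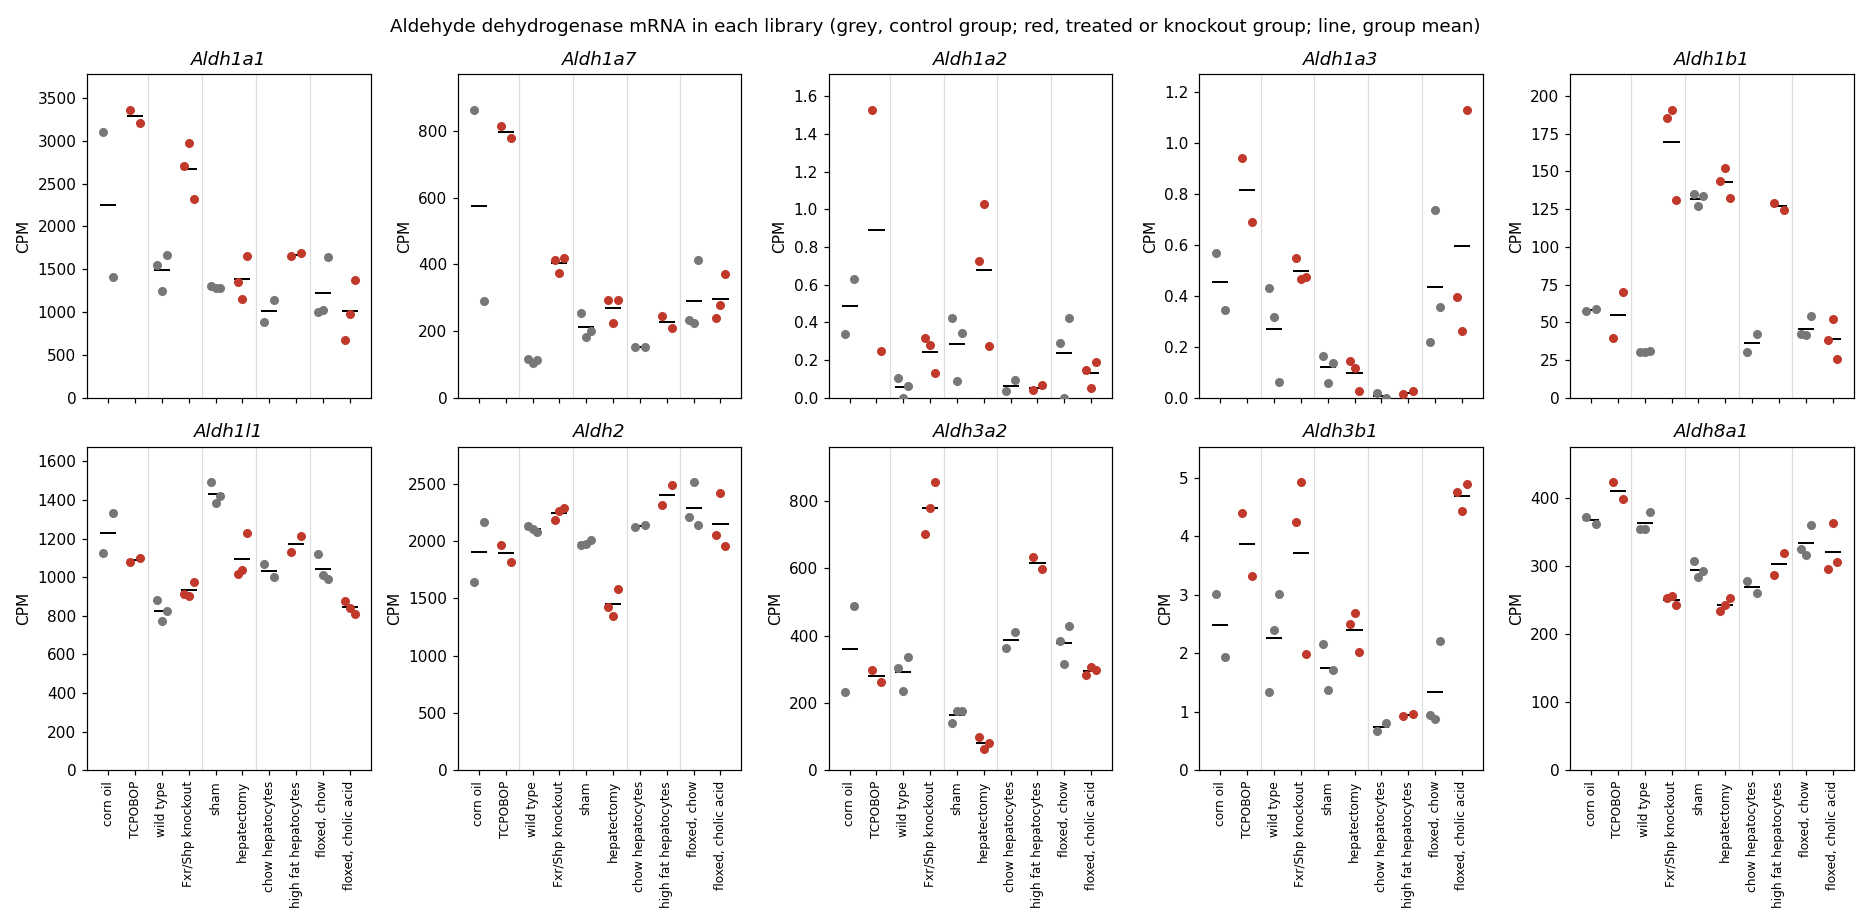
CPM of each of the 10 aldehyde dehydrogenases (y axis, scaled within each pair) in all 26 libraries, arranged by group; points are libraries, horizontal lines are group means, and grey and red separate control from treated or knockout groups. Aldh1b1 lies at 30.7 to 31.0 CPM in wild type and 131 to 191 CPM in the Fxr/Shp knockout, and Aldh3a2 lies lowest after hepatectomy.

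The knockout comparison asked which genes depend on FXR and SHP. Of the 8 members that passed the filter on low counts, 4 rose (Aldh1a1, Aldh1a7, Aldh1b1 and Aldh3a2) and 1 fell (Aldh8a1). Among all 13473 genes tested, 40.4% were called, 21% raised and 19.4% lowered. The median log2 fold change of the 8 members was 0.78, beside -0.01 over all genes tested.

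The retinaldehyde dehydrogenase Aldh1a1 was at 1551, 1252 and 1669 CPM in wild type and at 2701, 2977 and 2320 CPM in the knockout. The groups did not overlap, as in 26.5% of all genes tested with the knockout higher and 26.9% with it lower, and the log2 fold change was 0.84 ± 0.15 (SE, edgeR adjusted p = 0.00241). Its paralog Aldh1a7 was at 117, 105 and 112 CPM in wild type and at 413, 375 and 420 CPM in the knockout. Every knockout library was above every wild-type library. The log2 fold change of Aldh1a7 was 1.85 ± 0.10 (adjusted p = 3.26e-06). With the reads of both genes summed as 1 feature, the change was 0.94 (adjusted p = 0.00106).

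The ratio of Aldh1a1 to Aldh1a7 reads set the wild-type libraries apart. It was 11.9 to 14.8 in wild type, 5.53 to 7.93 in the knockout, and between 2.83 and 8.10 in every library of the other 8 groups. Reads set aside as not uniquely aligned made up 43.2% to 44.1% of the counted entries in the wild-type libraries, 25.5% to 26.9% in the knockout, and 16.6% to 25.1% elsewhere. The part of this difference in the ratio, and in the Aldh1a7 change between knockout and wild type, was not tested.

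**Figure D2:**
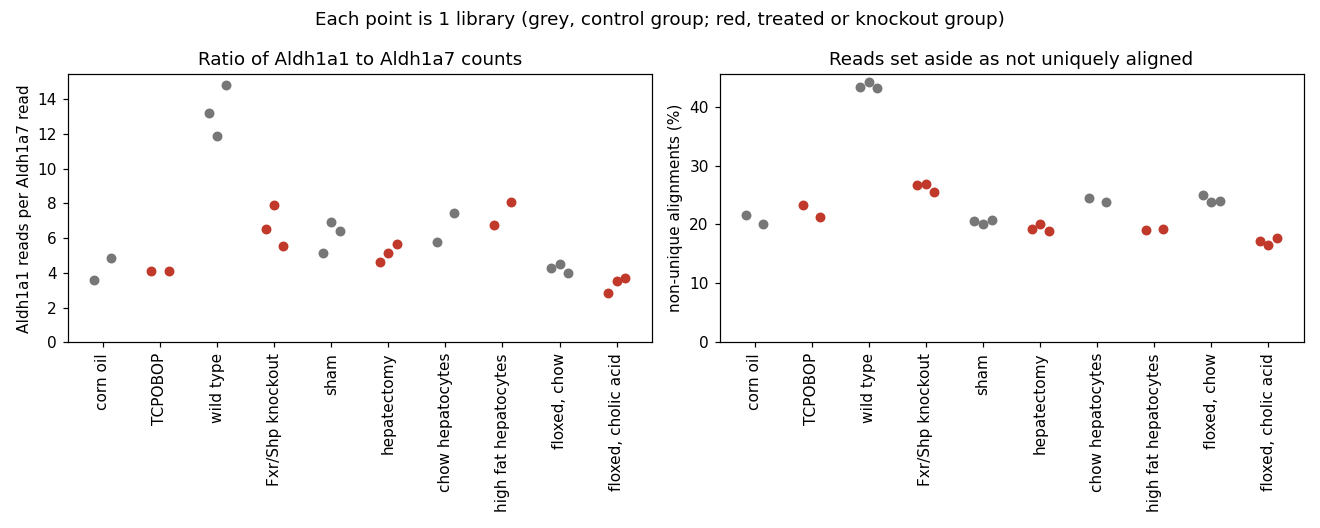
Left, reads of Aldh1a1 per read of Aldh1a7 in each library by group. Right, entries set aside as not uniquely aligned, as a share of the counted entries (%), in the same libraries. Each point is 1 library. The 3 wild-type libraries stand above all others in both panels, at ratios of 11.9 to 14.8 and shares of 43.2% to 44.1%.

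Of the mitochondrial enzymes, Aldh1b1 had the largest log2 fold change of the 8 members tested. It was at 30.7, 30.7 and 31.0 CPM in wild type and at 186, 191 and 131 CPM in the knockout, with the third knockout library lowest. The log2 fold change was 2.46 ± 0.15 (adjusted p = 7.73e-06), a 5.49-fold rise. Aldh2, the main acetaldehyde dehydrogenase of liver, was at 2132, 2105 and 2081 CPM in wild type and at 2186, 2263 and 2292 CPM in the knockout, a log2 difference of 0.09 ± 0.10 (adjusted p = 0.477). The cytosolic folate enzyme Aldh1l1, at 771 to 884 CPM in wild type and 905 to 977 CPM in the knockout, also did not pass the test (log2 difference 0.17 ± 0.10, adjusted p = 0.199). With scaling to total gene counts alone, both passed at 0.29 for Aldh2 (adjusted p = 0.0341) and 0.37 for Aldh1l1 (adjusted p = 0.0132). That scaling moved the median of all genes to 0.19 and the split of calls from 2823 raised and 2618 lowered to 4119 and 1277.

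Fatty aldehyde dehydrogenase Aldh3a2 was at 303, 235 and 336 CPM in wild type and 702, 779 and 856 CPM in the knockout, with no overlap. It rose by a log2 fold change of 1.42 ± 0.15 (adjusted p = 0.000154). The kynurenine-pathway gene Aldh8a1 was the member that fell, from 353, 353 and 379 CPM to 252, 256 and 242 CPM (log2 fold change -0.53 ± 0.09, adjusted p = 0.00162). With scaling to total gene counts its value was -0.33 (adjusted p = 0.0166). Aldh3b1 was at 1.34 to 3.02 CPM in wild type and at 4.25, 4.92 and 1.98 CPM in the knockout. Its groups overlapped and it missed the test (0.73 ± 0.39, adjusted p = 0.169), but passed without the third knockout library (1.04, adjusted p = 0.0199).

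Genes acting on the same substrates moved in both directions in the knockout. Of 24 retinoid genes tested, 14 rose and 4 fell. The retinol dehydrogenase gene Dhrs9 was among the raised (log2 fold change 2.73), and the serum retinol carrier Rbp4 among the lowered (-0.64). Of 9 ethanol and acetaldehyde genes, 2 rose and 3 fell, among them the alcohol dehydrogenase Adh4 (-1.90) and the ethanol-oxidising cytochrome Cyp2e1 (-0.65). In the kynurenine list 1 of 16 rose, Acmsd (1.78), whose enzyme acts just before the Aldh8a1 step, and 5 fell, among them tryptophan dioxygenase Tdo2 (-1.13). The folate list gave 3 raised and 5 lowered of 27, with the formiminotransferase Ftcd at -1.01, and the fatty aldehyde list 2 raised and 3 lowered of 11, with Cyp4f13 at -0.74 among the lowered. All these genes are read against the 40.4% called overall.

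Markers of other cell types also differed. The summed level of 10 stellate cell markers was 200 to 342 CPM in wild type and 423 to 506 CPM in the knockout, with 7 of 10 raised, and that of 7 bile duct markers was 40.2 to 56.2 and 73.7 to 153 CPM, with 5 raised. Of 6 hepatocyte markers 3 were lowered, with sums of 88851 to 117264 and 63731 to 87314 CPM. Their part in the member changes was not tested.

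The high fat diet comparison, in isolated hepatocytes, gave 4 raised and 0 lowered of the 8 members tested, where 24% of all 13892 genes were called, 12.9% raised and 11.1% lowered. The raised members were Aldh1a1, Aldh1a7, Aldh1b1 and Aldh3a2. All 8 members tested were higher in both high fat libraries than in both chow libraries, as were 35.1% of all genes tested, while 33% were lower in both. Their median log2 fold change was 0.46, beside 0.01 over all genes.

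Aldh1b1 was at 30.5 and 42.4 CPM on chow and at 129 and 125 CPM on the high fat diet. The log2 fold change was 1.80 ± 0.16 (adjusted p = 0.00348), a 3.48-fold rise, and it stayed past the threshold in each of the 4 fits that left out 1 library. Aldh3a2 was at 364 and 412 CPM on chow and 634 and 598 CPM on the high fat diet (log2 fold change 0.67 ± 0.10, adjusted p = 0.0108). Neither gene's groups overlapped.

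Aldh1a1 was at 884 and 1144 CPM on chow and 1654 and 1688 CPM on the high fat diet. It rose by 0.72 ± 0.14 on the log2 scale (adjusted p = 0.0194). Aldh1a7 was at 153 and 154 CPM on chow and 244 and 208 CPM on the high fat diet, a log2 fold change of 0.56 ± 0.10 (adjusted p = 0.0176). Without the first high fat library, Aldh1a1 (0.73, adjusted p = 0.0540) and Aldh1a7 (0.44, adjusted p = 0.0628) missed the threshold. In a fit of all 26 libraries, 1 member, Aldh1b1, was called. Aldh2 (0.17 ± 0.09), Aldh1l1 (0.18 ± 0.09), Aldh8a1 (0.17 ± 0.09) and Aldh3b1 (0.35 ± 0.25) did not pass (adjusted p from 0.200 to 0.341).

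Pathway counts on the high fat diet are read against 12.9% raised and 11.1% lowered of all genes tested. Of 8 genes in the ethanol and acetaldehyde list, 2 rose and 2 fell. The acyl-CoA synthetase gene Acss3 was among the raised, at 8.67 ± 1.49 CPM on chow and 33.7 ± 5.93 CPM on the high fat diet (SD, n = 2), and Cyp2e1 among the lowered (-0.49). Of 24 retinoid genes 5 rose, with the retinol dehydrogenase Rdh16 at 0.59, and 4 fell, with Rdh9 at -1.72. The folate list had 4 raised, with the sarcosine dehydrogenase Sardh at 0.67, and 2 lowered of 27. The kynurenine list had 2 raised, with Ido2 at 0.55, and 3 lowered of 16, with Acmsd at -0.99. The fatty aldehyde list had 1 raised, the fatty acid hydroxylase Cyp4f15 at 0.50, and 3 lowered of 11, with Cyp4a10 at -0.87.

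In the high fat hepatocytes all 6 endothelial markers were raised (sum 38.4 to 40.3 CPM on chow, 93.7 to 96.3 CPM on high fat diet), as were 6 of 9 stellate markers tested (9.85 to 15.9 and 36.6 to 38.3 CPM) and 4 of 7 macrophage markers (27.2 to 27.6 and 44.5 to 50.1 CPM). Of 6 hepatocyte markers 2 were lowered, with sums of 86239 to 87928 CPM on chow and 84475 to 85703 CPM on the high fat diet. The bile duct marker Cftr and the neutrophil marker Ly6g were at 0 in these libraries. The part of other cell types in the member changes was not tested. Under scaling to total gene counts the split of all calls moved from 1789 raised and 1544 lowered to 2499 and 872, with the median of all genes at 0.14 and the same number of members called.

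**Figure D3:**
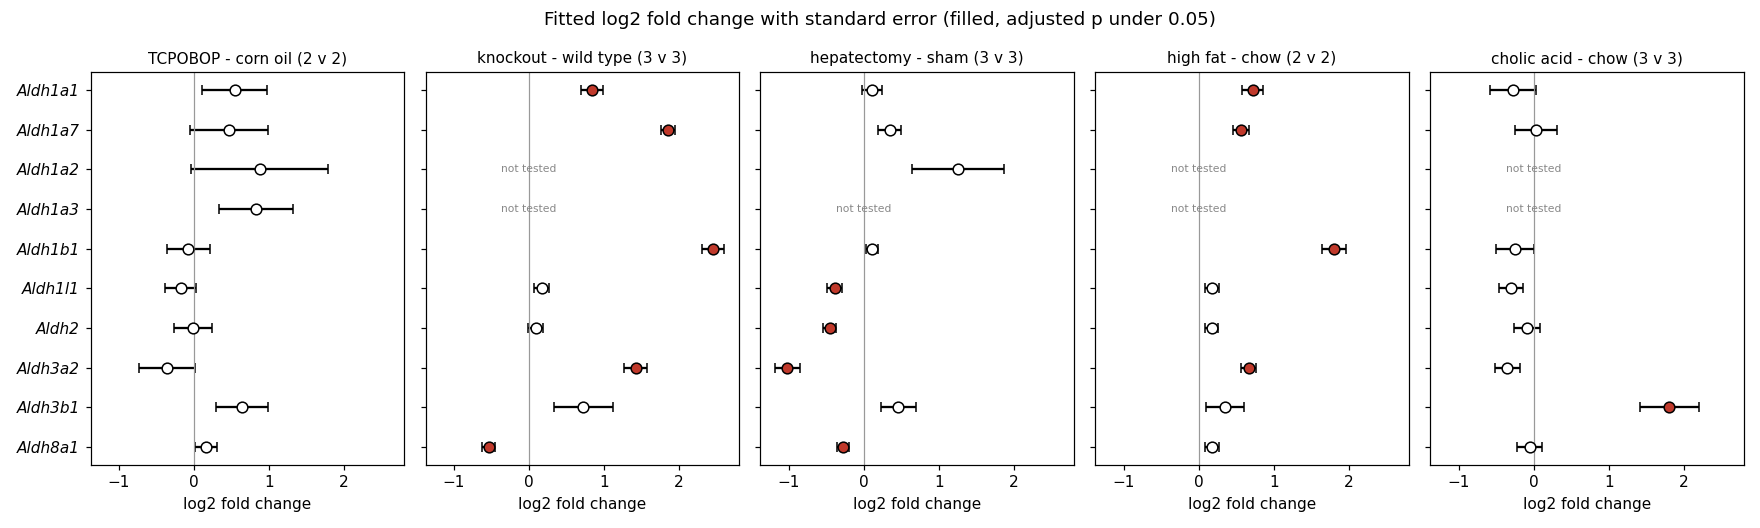
Fitted log2 fold change (x axis) of each aldehyde dehydrogenase in the 5 pairs, treated or knockout minus control; points are edgeR estimates, bars 1 standard error, and filled points have an adjusted p under 0.05. Aldh1b1 stands at 2.46 in the knockout and 1.80 on the high fat diet, and at 0.11 after hepatectomy, -0.25 on cholic acid and -0.08 with TCPOBOP.

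After partial hepatectomy, which starts regrowth of the remaining liver, 9 members passed the filter, 0 were raised and 4 were lowered, where 30.7% of all 13753 genes were called, 16.4% raised and 14.3% lowered. The lowered members were Aldh3a2, Aldh2, Aldh1l1 and Aldh8a1, which act on fatty aldehydes, acetaldehyde, folate and kynurenine intermediates. The median of the 9 members was 0.11, beside 0.01 over all genes.

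Aldh3a2 was at 139, 177 and 176 CPM in sham liver and at 97.7, 63.2 and 81.9 CPM after hepatectomy. With no overlap, as for 22.6% of all genes below the controls and 24.4% above them, it fell by 1.02 ± 0.17 on the log2 scale (adjusted p = 0.00299). Aldh2 was at 1966, 1973 and 2011 CPM in sham and 1424, 1347 and 1577 CPM after hepatectomy, again without overlap (log2 fold change -0.45 ± 0.09, adjusted p = 0.00652). Both calls held in each of the 6 fits that left out 1 library.

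Aldh1l1 was at 1491, 1385 and 1422 CPM in sham liver and 1016, 1038 and 1229 CPM after hepatectomy. Aldh8a1 was at 307, 283 and 292 CPM in sham and 233, 243 and 252 CPM after hepatectomy. The groups of both genes did not overlap, with log2 fold changes of -0.39 ± 0.10 for Aldh1l1 (adjusted p = 0.0191) and -0.27 ± 0.08 for Aldh8a1 (adjusted p = 0.0277). These 2 calls were close to the threshold: each was kept only without the third hepatectomy library and missed in the other 5 fits that left out 1 library, at adjusted p up to 0.0645 for Aldh1l1 and 0.0850 for Aldh8a1. Both were also lost with scaling to total gene counts (-0.21, adjusted p = 0.115, and -0.09, adjusted p = 0.369).

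The genes raised in the knockout had other values after hepatectomy. Aldh1a1 was at 1310, 1278 and 1280 CPM in sham and 1355, 1154 and 1659 CPM after hepatectomy (0.11 ± 0.13, adjusted p = 0.565), so that the operated livers spread on both sides of the sham values. Aldh1a7 was at 256, 184 and 199 CPM in sham and 293, 224 and 294 CPM after hepatectomy (0.34 ± 0.15, adjusted p = 0.125). Aldh1b1 was at 135, 127 and 134 CPM in sham and 144, 152 and 133 CPM after hepatectomy (0.11 ± 0.08, adjusted p = 0.325). With scaling to total gene counts, which put the median of all genes at 0.20 and the split of calls at 3730 raised and 1053 lowered in place of 2256 and 1969, Aldh1a7 (0.52, adjusted p = 0.0282) and Aldh1b1 (0.30, adjusted p = 0.0297) passed. Aldh1a7 also passed without the first sham library (0.50, adjusted p = 0.0404). Aldh3b1 (1.37 to 2.15 CPM in sham, 2.02 to 2.68 CPM after hepatectomy) and Aldh1a2 (3 to 13 reads in sham, 10 to 35 after hepatectomy) overlapped and did not pass.

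Other genes of these pathways were called in both directions, except in the kynurenine and fatty aldehyde lists, where none was raised. Counts are read against 16.4% raised and 14.3% lowered of all genes tested. The kynurenine list had 0 raised and 8 lowered of 17, with the NAD salvage gene Nampt at -1.15, and the ethanol and acetaldehyde list 1 raised and 5 lowered of 9, with Cyp2e1 at 9040 ± 1129 CPM in sham and 5109 ± 301 CPM after hepatectomy (SD, n = 3). Of 27 folate genes 3 rose, led by Mthfd2 (3.00) and thymidylate synthase Tyms (2.48), both of which serve nucleotide synthesis, and 6 fell. Of 24 retinoid genes 2 rose and 5 fell, with the retinol saturase Retsat at -1.19, and of 11 fatty aldehyde genes 0 rose and 2 fell. Hepatocyte markers were lowered in 3 of 6 cases, with sums of 125334 to 128275 CPM in sham and 93549 to 104726 CPM after hepatectomy, and their part in the member changes was not tested.

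Cholic acid feeding gave 1 raised and 0 lowered of the 8 members tested, where 4.77% of 12577 genes were called, 2.27% raised and 2.5% lowered. The raised member was Aldh3b1, at 0.943, 0.869 and 2.20 CPM on chow (13, 13 and 31 reads) and 4.75, 4.43 and 4.89 CPM on cholic acid (96, 84 and 104 reads). The cholic acid libraries were all above the chow libraries, as for 15.5% of all genes tested with 15.7% all below, and the log2 fold change was 1.81 ± 0.39 (adjusted p = 0.0397). The call was kept without the third floxed chow library (2.36, adjusted p = 0.00523) and missed in the other 5 fits that left out 1 library, at adjusted p from 0.100 to 0.135. The summed level of 7 macrophage markers was 67.5 to 160 CPM on chow and 156 to 255 CPM on cholic acid, with 1 marker raised, and that of 10 stellate markers was 113 to 216 and 188 to 308 CPM, with 1 raised. Their part in the Aldh3b1 change was not tested.

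The members that rose in the knockout did not pass the test here. Aldh1a1 was at 1002, 1019 and 1648 CPM on chow and 678, 978 and 1372 CPM on cholic acid (-0.28 ± 0.30, adjusted p = 0.621). Aldh1a7 was at 233, 226 and 413 CPM on chow and 240, 279 and 373 CPM on cholic acid (0.03 ± 0.28, adjusted p = 0.960). For both genes the third floxed chow library was the highest of its group and the groups overlapped. Aldh1b1 was at 42.4, 41.6 and 53.9 CPM on chow and 38.3, 52.1 and 25.9 CPM on cholic acid (-0.25 ± 0.25, adjusted p = 0.598). Aldh3a2 was at 385, 317 and 430 CPM on chow and 282, 308 and 297 CPM on cholic acid, without overlap but not past the threshold (-0.35 ± 0.17, adjusted p = 0.262).

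Aldh1l1 was likewise lower in each cholic acid library (879, 841 and 810 CPM) than on chow (1121, 1011 and 991 CPM) and missed the threshold (-0.30 ± 0.16, adjusted p = 0.292). It passed in the fit of all 26 libraries (adjusted p = 0.0453). Aldh2 (-0.09 ± 0.18) and Aldh8a1 (-0.06 ± 0.16) had overlapping groups, and both signs turned positive with scaling to total gene counts, under which the median of all genes stood at 0.19 and the split of calls moved from 285 raised and 315 lowered to 556 and 243.

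Pathway counts on cholic acid are read against the 4.77% of all genes called. The ethanol and acetaldehyde list had 0 raised and 2 lowered of 8, among them Cyp2e1, at 10490 ± 950 CPM on chow and 4369 ± 770 CPM on cholic acid (SD, n = 3). In the fatty aldehyde list of 11, the sphingosine phosphate lyase Sgpl1, whose product hexadecenal is a substrate of the Aldh3a2 enzyme, rose (log2 fold change 1.00) and 5 fell, among them Cyp4f14 (-1.42). The retinoic acid hydroxylase Cyp26a1 (3.30) and the retinol dehydrogenase Dhrs9 (3.00) were the 2 raised of 23 retinoid genes, with 0 lowered. The kynurenine list had 0 raised and 3 lowered of 16, with Aadat at -1.32, and the folate list 0 raised and 1 lowered of 27, the betaine-homocysteine methyltransferase Bhmt (-2.44).

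The difference between the knockout effect and the cholic acid effect was tested directly in 1 fit of the 12 libraries, in which 13.9% of 13935 genes were called, 7.18% higher and 6.74% lower in the knockout. Of the 9 members tested, 3 were called, all with the larger change in the knockout. The difference of log2 fold changes was 2.71 ± 0.32 for Aldh1b1 (adjusted p = 0.000267), 1.83 ± 0.32 for Aldh1a7 (adjusted p = 0.00268) and 1.78 ± 0.23 for Aldh3a2 (adjusted p = 0.000469). Each of these 3 calls was kept in the 12 fits that left out 1 library. For Aldh1a1 the difference was 1.123 ± 0.37 and missed the threshold (adjusted p = 0.0606), though it passed with DESeq2 (adjusted p = 0.0197) and without the filter (adjusted p = 0.0251). It also passed without the first floxed chow library (adjusted p = 0.0457) or without the third cholic acid library (adjusted p = 0.0213). Aldh1l1 (0.48 ± 0.17, adjusted p = 0.0741), Aldh8a1 (-0.47 ± 0.17, adjusted p = 0.0889), Aldh3b1 (-1.07 ± 0.59, adjusted p = 0.256) and Aldh2 (0.19 ± 0.19, adjusted p = 0.552) were not called. With DESeq2, Aldh1l1 (adjusted p = 0.00221) and Aldh8a1 (adjusted p = 0.0355) passed, as they did in edgeR without the third floxed chow library (adjusted p = 0.0450 and 0.0380). The 2 pairs also differ in feeding state and in the floxed alleles, and these cannot be told apart from the genotype and the diet.

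The difference between the hepatectomy and the cholic acid effect, which uses the same cholic acid pair, called 0 of 10 members, where 13% of 13985 genes were called, 8.02% higher and 5.01% lower after hepatectomy. At an unadjusted p under 0.05 in that fit were 3937 of all 13985 genes tested and 2 members, both below 0. These members were Aldh3b1 (-1.35 ± 0.45, edgeR adjusted p = 0.0704) and Aldh3a2 (-0.66 ± 0.24, edgeR adjusted p = 0.0877). DESeq2 called 1 member, Aldh3b1 (adjusted p = 0.0185). Without the third floxed chow library, Aldh3b1 (-1.91, adjusted p = 0.00483) and Aldh3a2 (-0.77, adjusted p = 0.0403) passed, and Aldh3a2 passed without the first hepatectomy library (adjusted p = 0.0494). Strain, feeding and age differ between these pairs as well.

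The TCPOBOP comparison asked what activation of CAR changes, and its control is divided. Aldh1a1 was at 3099 and 1411 CPM in corn oil libraries 1 and 2 and at 3357 and 3212 CPM with TCPOBOP. Aldh1a7 was at 862 and 289 CPM in those controls and at 814 and 780 CPM with TCPOBOP. In both genes the library labelled corn oil 1 lay with the TCPOBOP libraries and corn oil 2 lay apart, as it did for Cyp2b10. Aldh3a2 was at 233 and 488 CPM in the corn oil libraries and 299 and 262 CPM with TCPOBOP.

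With both corn oil libraries in the fit, 0 of the 10 members and 0% of 12785 genes were called by edgeR, with 0 members and 751 genes at an unadjusted p under 0.05, and DESeq2 called 91 genes and 0 members. The log2 differences were 0.54 ± 0.43 for Aldh1a1 (adjusted p = 0.944), 0.47 ± 0.52 for Aldh1a7 (adjusted p = 0.959) and -0.36 ± 0.37 for Aldh3a2 (adjusted p = 0.948). Without the library labelled corn oil 1, edgeR called 1233 genes and 3 members: Aldh1a1 at 1.22 (adjusted p = 0.00589), Aldh1a7 at 1.47 (adjusted p = 0.00108) and Aldh3a2 at -0.80 (adjusted p = 0.0109). That fit has a single control library, which is assumed to vary like the TCPOBOP group, so no direction is drawn from it.

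Without a call, Aldh1b1 was at 57.2 and 58.7 CPM in the corn oil libraries and 39.7 and 70.2 CPM with TCPOBOP, so the treated values lay on both sides of the controls. Aldh2 (1644, 2170, 1967 and 1816 CPM, corn oil first) overlapped, Aldh1l1 (1125, 1334, 1077 and 1102 CPM) was lower in both TCPOBOP libraries, and Aldh8a1 (372, 362, 422 and 398 CPM) and Aldh3b1 (3.01, 1.94, 4.41 and 3.33 CPM) were higher in both. Among all genes tested, 16.8% were higher in both TCPOBOP libraries than in both corn oil libraries and 18.7% were lower. The smallest adjusted p of any gene in the edgeR test of these 4 libraries was 0.345.

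**Figure D4:**
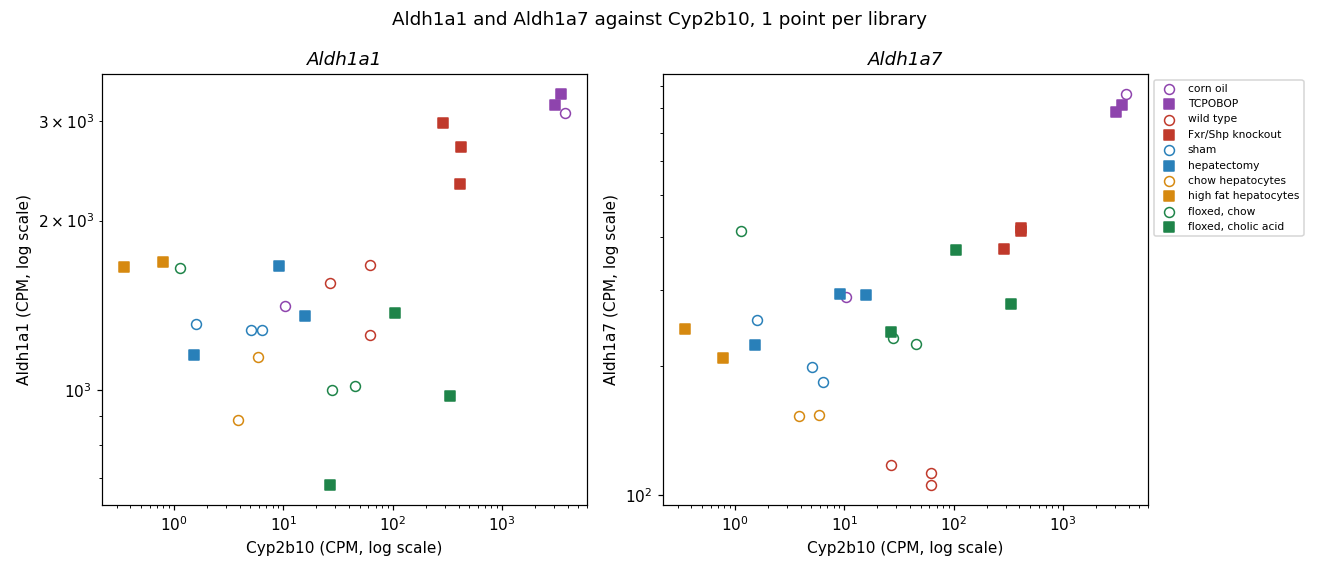
CPM of Aldh1a1 (left) and Aldh1a7 (right) against CPM of Cyp2b10 in the same library, both on log axes, with open circles for control libraries, filled squares for treated or knockout libraries and colours for pairs. The library labelled corn oil 1 is the open circle at 3783 CPM of Cyp2b10, beside the TCPOBOP squares, and the high fat hepatocytes have the lowest Cyp2b10, at 0.350 and 0.786 CPM.

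Aldh1a1, Aldh1a7 and 8 CAR targets were set side by side in each pair. With TCPOBOP, 0 of the 8 were called with both corn oil libraries in the fit, as was 0% of all genes. In the knockout, Cyp2b10 was at 417, 286 and 409 CPM against 26.9, 62.7 and 62.4 CPM in wild type, and 6 of 8 CAR targets were raised, beside 21% of all genes. On cholic acid, 6 of 8 CAR targets were also raised, beside 2.27% of all genes, led by the glutathione transferase Gstm3 (72.9 ± 20.7 to 5436 ± 2163 CPM, SD, n = 3), while Aldh1a1 and Aldh1a7 were not called. On the high fat diet 0 of the 8 were raised and 4 were lowered, beside 12.9% and 11.1% of all genes, with Cyp3a11 at 3313 ± 496 CPM on chow and 137 ± 12.3 CPM on the high fat diet (SD, n = 2), in the hepatocytes in which Aldh1a1 and Aldh1a7 rose. After hepatectomy 0 were raised and 2 were lowered, beside 16.4% and 14.3%.

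As a description, the genes most like Aldh1a1 were ranked by the Pearson correlation, over the 26 libraries, of log2(CPM + 1) less the mean of each library's own control group. Among 11116 genes Aldh1a7 ranked first (r = 0.84), followed by Dap (0.82), Lect2 (0.82), Odr4 (0.82) and Sar1b (0.80). Aldh1b1 ranked 163rd (0.65), Aldh3a2 989th (0.48) and Cyp2b10 2479th (0.29). Libraries of a pair share their control mean, and the TCPOBOP pair with its divided control is among them.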

How the data were processed

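RNA-seq of mouse liver or isolated hepatocytes was deposited as 1 table of read counts per gene for 26 libraries in 10 groups. Per the labels' protocols, libraries were made with the TruSeq Stranded mRNA kit. The authors made the deposited counts, per the submitters' processing notes, with bcl2fastq 2.17.1.14, Trimmomatic, STAR 2.4.2a, Picard 1.119 and HTSeq against GRCm38 (mm10). The annotation release and the strand setting of the counting are not given in the sources used here. The table ends in 5 summary lines that name no gene (reads without a feature, 3.19% to 5.37% of all entries, ambiguous reads, 1.02% to 3.73%, and reads not aligned uniquely, 16.6% to 44.1%, among them), which were left out of library sizes and tests.

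Groups came from the sample labels, and each treated group was tested against its own control. Genes were filtered with filterByExpr (minimum count 10, minimum total 15), scaled by TMM and tested with edgeR 4.0.16 (limma 3.58.1, R 4.3.3) by the quasi-likelihood test, with Benjamini-Hochberg adjustment over all genes tested and a threshold of 0.05. Differences between effects were interaction terms in a joint fit. The fits were tested on simulated data with seeded changes. Symbols, positions and exon lengths came from GENCODE M21 (GRCm38), and promoters from RefSeq (GRCm38.p6).

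The members and gene lists were chosen with earlier results of these data known. Genes named were the 10 members, Nr1h4, Nr0b2 and Cyp2b10 as label checks, up to 2 raised and 2 lowered genes per list and comparison among those called whose average log2 CPM reached 1, and the 5 genes most like Aldh1a1. The 11116 genes ranked for that likeness met the same level over all libraries. Alternatives were DESeq2 1.42.0, its size factors, scaling to total counts, no filter, a filter at a mean count of 10, a replicate block, 1 fit of all libraries, Aldh1a1 and Aldh1a7 summed, and each library left out in turn. Replicate number entered the fits only as an alternative. Whether equal numbers mark paired samples was not tested, and on cholic acid each sample correlated best with its own number. Values of some list genes are not reported here.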

Additional observations from a re-analysis of the deposited data

Results flagged for a closer look

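For 3 members the change in the Fxr/Shp knockout differed from the change on cholic acid, by an interaction term in edgeR. The difference of log2 fold changes was 1.83 for Aldh1a7, from 1.85 in the knockout and 0.03 on cholic acid. It was 2.71 for Aldh1b1, from 2.46 and -0.25. It was 1.78 for Aldh3a2, from 1.42 and -0.35. In the wild-type libraries 43.2% to 44.1% of the counted entries were also not uniquely aligned, above every other group. The part of this in the 3 differences was not tested.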

How the results depend on the processing

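Of 879 member values under the alternatives, 813 kept their direction and side of the threshold, 24 lost a call, 23 gained one and 19 changed sign, and the cause was not tested. Low counts limit the tests of Aldh1a2 and Aldh1a3, with at most 35 and 24 reads per library. The deepest libraries, those of hepatocytes, did not hold the highest counts of either gene. Scaling to total gene counts turned Aldh2 to 0.083 and Aldh8a1 to 0.12 on cholic acid.

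DESeq2 called 91 genes for TCPOBOP, 1445 for cholic acid, 6 members for the difference between knockout and cholic acid and 1 for that between hepatectomy and cholic acid. With no filter 955 genes were called for cholic acid. In 1 fit of all 26 libraries, 9 genes were called for TCPOBOP, 1736 genes and 1 member for the high fat diet, and 3132 genes and 2 members for cholic acid, in place of 0, 3333 and 4, and 600 and 1.

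Leaving out each library in turn, genes called ranged from 0 to 1233 for TCPOBOP (1233 without the library labelled corn oil 1), 3969 to 6024 for the knockout, 2554 to 4218 for hepatectomy, 1141 to 2644 for the high fat diet (1141 without its first library) and 189 to 1345 for cholic acid (1345 without the third floxed chow library, 189 without the second cholic acid library). They ranged from 1325 to 2350 for knockout against cholic acid and from 1089 to 2495 for hepatectomy against cholic acid. Members called ranged from 0 to 3, 5 to 6, 2 to 4, 2 to 4, 0 to 1, 3 to 5 and 0 to 2 in the same order. Signs changed within these ranges of log2 fold change. For TCPOBOP they were -0.92 to 1.67 for Aldh1a2, -0.11 to 1.47 for Aldh1a7, -0.52 to 0.29 for Aldh1b1, -0.19 to 0.21 for Aldh2 and -0.80 to 0.27 for Aldh3a2. After hepatectomy the range was -0.041 to 0.22 for Aldh1a1, and on cholic acid -0.16 to 0.37 for Aldh1a7 and -0.15 to 0.0075 for Aldh8a1. In the differences between effects, Aldh1a3 ran from -0.21 to 1.27 (knockout against cholic acid) and from -1.34 to 0.11 (hepatectomy against cholic acid), and Aldh1a7 from -0.032 to 0.51 in the latter.

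When the replicate number entered the fit as a block, genes called were 0 for TCPOBOP, 4763 for the knockout, 3664 for hepatectomy, 3693 for the high fat diet and 480 for cholic acid, with 1536 and 1497 for the differences. Members called were 0, 5, 3, 4, 1, 4 and 0. The block ended the Aldh8a1 call after hepatectomy (adjusted p = 0.0649), gave one for Aldh1a1 in knockout against cholic acid (adjusted p = 0.0260) and turned the TCPOBOP value of Aldh2 to 0.00095. No other member call changed. Samples with the same number correlated in their deviations from the group means at 0.13 for TCPOBOP, -0.21 to 0.005 for the knockout, -0.08 to 0.12 for hepatectomy, 0.14 for the high fat diet and 0.09 to 0.16 for cholic acid, where each sample correlated best with its own number.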

Other observations

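Other aldehyde dehydrogenase genes also changed. In the knockout 4 of 9 tested rose and 1 fell, where 40.4% of all genes were called. The proline-pathway gene Aldh4a1 had 181 ± 10.1 CPM in wild type against 350 ± 13.9 CPM without Fxr and Shp (SD, n = 3), Aldh9a1, which serves carnitine synthesis, had 226 ± 10.9 and 318 ± 23.5 CPM, and Aldh16a1 was the gene that fell (log2 fold change -0.80). Aldh3b3, which lies outside the naming rule and was chosen after its values were seen, was at 0 CPM in all 3 wild-type libraries and at 1.00 ± 0.43 CPM in the knockout, and so passed the filter on low counts only through the knockout group. Genes that passed in this way were not left out of the counts above, and no direction is drawn from Aldh3b3.

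After hepatectomy 2 of 7 other family genes rose and 4 fell, where 30.7% of all genes were called. The methylmalonate semialdehyde dehydrogenase Aldh6a1 was at 551 ± 30.4 CPM in sham and 332 ± 3.12 CPM after hepatectomy, and Aldh9a1 at 325 ± 2.55 and 211 ± 22.7 CPM. Aldh16a1 rose by a log2 fold change of 0.26 (edgeR adjusted p = 0.0486). On the high fat diet 2 of 9 rose and 0 fell, where 12.9% of all genes were raised and 11.1% lowered. Aldh4a1 was at 205 ± 2.74 CPM on chow and 260 ± 10.9 CPM on the diet (SD, n = 2). On cholic acid 0 of 7 were called by edgeR, where 4.77% of all genes were. At an unadjusted p under 0.05 were 2 of the 7, beside 2904 of all 12577 genes tested.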
